A study of Homo sapiens with 4 samples.

Results

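The step from 2 h to 4 h of estradiol was examined in T-47D cells, with the 2 h pool as the starting level. It was made of the cells that the authors assigned to 1 of these time points, 1207 cells at 2 h and 1341 at 4 h, so 2548 of the 4626 T-47D cells called to 1 time point and of the 13703 such cells in the series. The question was which genes still moved, and in which direction, after the first 2 h of the response.

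T-47D is an established line from a ductal carcinoma of the mammary gland that expresses the estrogen and progesterone receptors. Cultures were kept in medium depleted of hormones and then given 10 nM 17β-estradiol (E2) for 2, 4 or 8 h. The 0 h culture received the vehicle. Cells of each culture were marked with a MULTI-seq tag, a short DNA oligonucleotide held in the membrane, before the 4 cultures were mixed and run as 1 droplet library. The series also holds the same time course in Ishikawa, an endometrial adenocarcinoma line. Each time point was 1 culture, so no value has a replicate, no test was possible, and every interval covers counting error only. The time point of a cell rests on the 8 bases of its tag, which are shown because they alone separate the pools.
2 h tag: CATGCCTA
4 h tag: GCAGCGTA

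E2 binds the estrogen receptor ESR1, a transcription factor that sits on DNA elements near and far from its target genes and recruits coactivators to them. The first transcripts change within minutes to a few hours, and some of them encode transcription factors, cofactors and signalling proteins whose own products act on later genes. In luminal breast cells the response is known for progesterone receptor, growth factors and cyclins, and for entry into DNA replication many hours later.

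The 2 h and 4 h pools held 26525924 and 29649051 counts of unique molecular identifiers (UMIs, each a captured transcript), with medians of 20840 and 21123 UMIs, 4382 and 4381 genes and 10.0% mitochondrial UMIs per cell in both. The 0 h and 8 h pools held 33175309 and 12927799 UMIs over 1525 and 553 cells. Of 6068 tagged barcodes, 1442 carried more than 1 tag and were left out as doublets (23.8%, 95% exact binomial interval 22.7% to 24.9%). Pairs of cells from the same culture carry 1 tag and were not removed. The line's identity was checked with 18 markers of luminal breast epithelium, all of which passed the minimum used below, with keratin 8 (KRT8) at 3467 and 3756 CPM (UMIs of the gene scaled to the pool's total) at 2 h and 4 h. None of 14 basal or mesenchymal markers and none of 17 immune or endothelial markers passed it. Their summed levels were 32.9 and 33.8 CPM for the first list and 2.45 and 2.53 for the second, in which 7 markers had no UMI. Of 7 Ishikawa markers, 4 had no UMI and 1, the adhesion molecule L1CAM, passed the minimum at 23.0 and 22.3 CPM. L1CAM stood at 0.64 and 0.98 CPM in Ishikawa itself, so it did not mark that line here. Of the 2548 cells, 8 shared a cell barcode with a called Ishikawa cell, and the libraries of the lines were separate.

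A gene was called higher or lower when its level differed by at least 1.5-fold on the log2(CPM + 1) scale and its mean over the 2 pools was at least 10 CPM. A pseudocount of 1 CPM understates the change of low genes. The minimum was on the mean, so HEG1, RPS6KA5 and CAMSAP3 passed it through the 2 h pool and SUSD3 and THSD4 through the 4 h pool. For these genes the pool that let them in was also the one where they were higher. Of 7408 genes past that minimum, 8 were higher at 4 h (0.108%) and 15 lower (0.202%), and 97.9% lay within 0.32 of 0 on the log2 scale, leaving 0.756% above and 1.32% below that range. The median log2 fold change of all genes was -0.01, 45.0% lay above 0, and the 5th and 95th percentiles were -0.20 and 0.17. All 23 genes past the rule had at least 179 UMIs in either pool. More genes passed the rule in the step before it, 1.12% of 7425 higher and 0.418% lower at 2 h than at 0 h. The step after it gave fewer genes in all, with 0.161% of 7432 genes higher and 0.0807% lower at 8 h than at 4 h. These steps share pools with the step from 2 h to 4 h, and the sizes of the steps were not tested against each other.

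**Figure D1:**
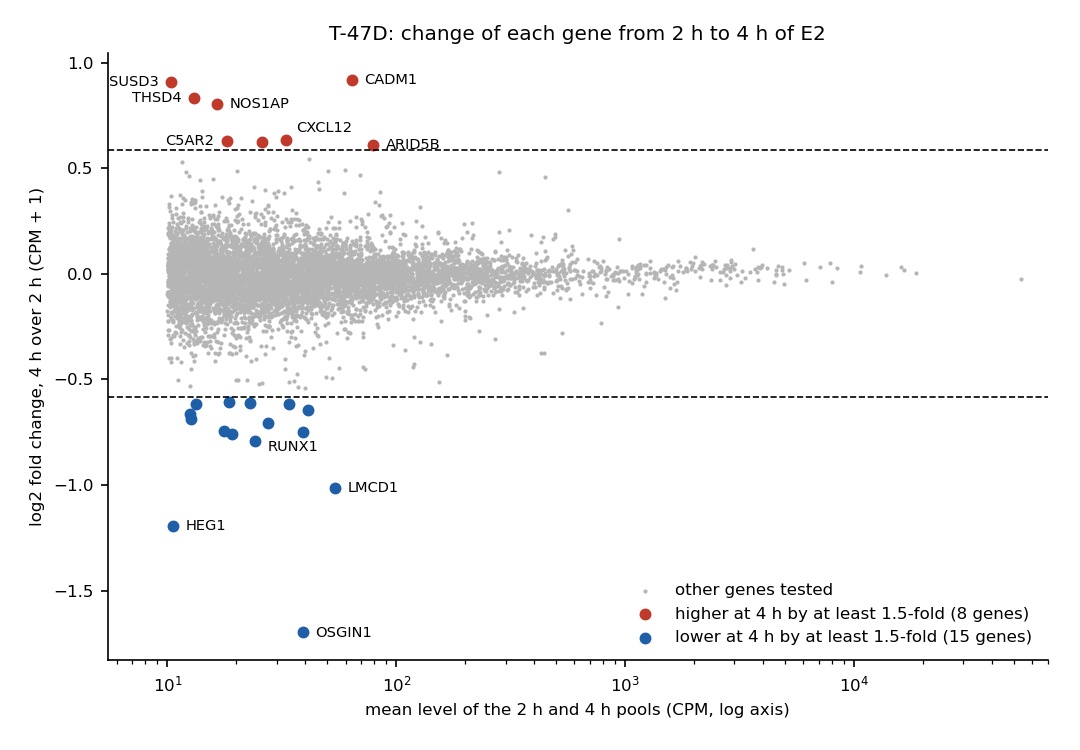
Each point is 1 of the 7408 genes, placed by the mean of its levels in the 2 h and 4 h pools (CPM, log axis) and by its log2 fold change at 4 h over 2 h, with dashed lines at 1.5-fold. The 8 higher genes (red) and 15 lower genes (blue) stand outside a band that holds 97.9% of genes within 0.32 of 0, and OSGIN1 lies farthest out at -1.70; 11 of the 23 are named.

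The genes that fell between 2 h and 4 h were led by OSGIN1, an oxidative stress response gene that acts against growth. OSGIN1 stood at 13.4 CPM in vehicle cells, then at 60.2 after 2 h (95% exact Poisson interval 57.3 to 63.3), 17.9 after 4 h (16.4 to 19.5) and 27.8 after 8 h. The 4 h level was the lowest after E2 was given, and its log2 fold change against 2 h was -1.70 (interval of the plain ratio -1.90 to -1.61), the most negative of all genes tested. HEG1, a transmembrane protein of cell junctions, was at 3.83, 15.1, 6.04 and 5.80 CPM at 0, 2, 4 and 8 h, and its log2 fold change from 2 h to 4 h was -1.20 (-1.59 to -1.07). HEG1 was highest in the 2 h pool, as were all 15 genes that fell, and at or under 6.04 CPM in the other pools. Its mean passed the minimum of 10 CPM only through the 2 h pool. The rule chose the 15 genes for a 2 h level above the 4 h level, which favours genes highest at 2 h. LMCD1, a LIM-domain cofactor of transcription factors, was at 46.9, 72.7, 35.4 and 26.6 CPM, a log2 fold change of -1.02 (-1.15 to -0.93) for the step. LMCD1 differed from both in that its 4 h and 8 h levels were under the 0 h level. Among genes past the minimum, these 3 were the only ones past 2-fold in either direction on the log2(CPM + 1) scale.

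Several regulators of transcription were among the genes that fell by less. RUNX1, a DNA-binding factor with roles in blood and mammary epithelium, was at 6.90, 30.8, 17.4 and 22.5 CPM at 0, 2, 4 and 8 h, and its log2 fold change was -0.79 (-0.99 to -0.66). MYB, a proto-oncogene transcription factor, was at 4.49, 22.7, 14.5 and 18.2 CPM, with a log2 fold change of -0.61 (-0.82 to -0.46). FHL2, a LIM-only scaffold and coactivator, was at 23.2, 50.1, 31.7 and 44.2 CPM, with a log2 fold change of -0.64 (-0.78 to -0.54). In these genes the 4 h level lay between those of 0 h and 2 h and the 8 h level above that of 4 h. BCL3, an IκB-family cofactor of NF-κB, had another course, at 14.5, 16.3, 10.3 and 9.75 CPM, with a log2 fold change of -0.61 (-0.88 to -0.45). The kinase RPS6KA5 (MSK1), which phosphorylates histone H3 and CREB, was at 13.8, 15.9, 9.51 and 8.74 CPM, with a log2 fold change of -0.69 (-0.96 to -0.52). The later levels of BCL3 and RPS6KA5 were under the 0 h levels, as in LMCD1.

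The other 7 genes that fell had log2 fold changes between -0.76 and -0.61. CHSY1, a chondroitin sulfate synthase, was at 24.3 CPM at 2 h and 14.0 at 4 h (log2 -0.76), and FAM102A, also known as early estrogen-induced gene 1, at 49.5 and 29.0 (log2 -0.75). KCTD6, an adaptor of a ubiquitin ligase, was at 22.5 and 13.0 CPM (log2 -0.74), and RNF223, a RING-finger protein, at 34.5 and 20.8 (log2 -0.70). TIPARP, an enzyme that adds ADP-ribose to proteins and a known target of the aryl hydrocarbon receptor, was at 27.9 and 17.9 CPM (log2 -0.61). All 5 genes had 0 h levels below both, from 4.82 CPM in KCTD6 to 20.7 in FAM102A. CAMSAP3, which binds the minus ends of microtubules, was at 15.5 and 9.44 CPM (log2 -0.66) after 9.53 at 0 h. IER5L, related to an immediate-early gene, was at 41.4 and 26.7 CPM (log2 -0.62) after 30.5 at 0 h.

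The genes that rose were fewer, and none reached 2-fold on the log2(CPM + 1) scale. Without the pseudocount, the intervals of the plain ratio of CADM1, THSD4, SUSD3 and NOS1AP reached past 2-fold. CADM1, a cell adhesion molecule of the immunoglobulin superfamily, was at 38.3 CPM in vehicle cells, 43.8 after 2 h (41.4 to 46.4), 83.8 after 4 h (80.5 to 87.1) and 98.3 after 8 h. Its log2 fold change from 2 h to 4 h was 0.92 (0.83 to 1.04), the highest of all genes, and most of the distance from 0 h to 8 h lay in this step. THSD4, a secreted protein of elastic fibres, was at 7.75, 9.12, 17.0 and 24.2 CPM, with a log2 fold change of 0.83 (0.68 to 1.13). SUSD3, a sushi-domain membrane protein known to respond to estrogen, was at 2.56, 6.94, 13.9 and 20.7 CPM, with a log2 fold change of 0.91 (0.75 to 1.26). Its mean over 2 h and 4 h passed the minimum only through the 4 h pool. NOS1AP, an adaptor of neuronal nitric oxide synthase, was at 7.14, 11.7, 21.2 and 22.4 CPM, with a log2 fold change of 0.81 (0.66 to 1.06). NOS1AP was at almost its 8 h level by 4 h, while SUSD3 and THSD4 were not.

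The other 4 genes that rose had log2 fold changes between 0.61 and 0.64. The chemokine CXCL12, the ligand of CXCR4, was at 6.09, 25.6, 40.3 and 59.9 CPM, with a log2 fold change of 0.64 (0.52 to 0.79). C5AR2, a receptor for the complement fragment C5a, was at 5.40, 14.0, 22.2 and 24.4 CPM, with a log2 fold change of 0.63 (0.48 to 0.85). The kinase SGK3, which acts downstream of phosphoinositide 3-kinase, was at 8.98, 20.2, 31.7 and 36.3 CPM, with a log2 fold change of 0.62 (0.49 to 0.80). In these 3 genes each pool was above the one before it. ARID5B, a DNA-binding factor that works with histone demethylases, was the exception among the risen genes, at 123, 62.5, 96.0 and 85.0 CPM in the same order of pools, with a log2 fold change of 0.61 (0.53 to 0.71). Its 4 h level lay between those of 0 h and 2 h.

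**Figure D2:**
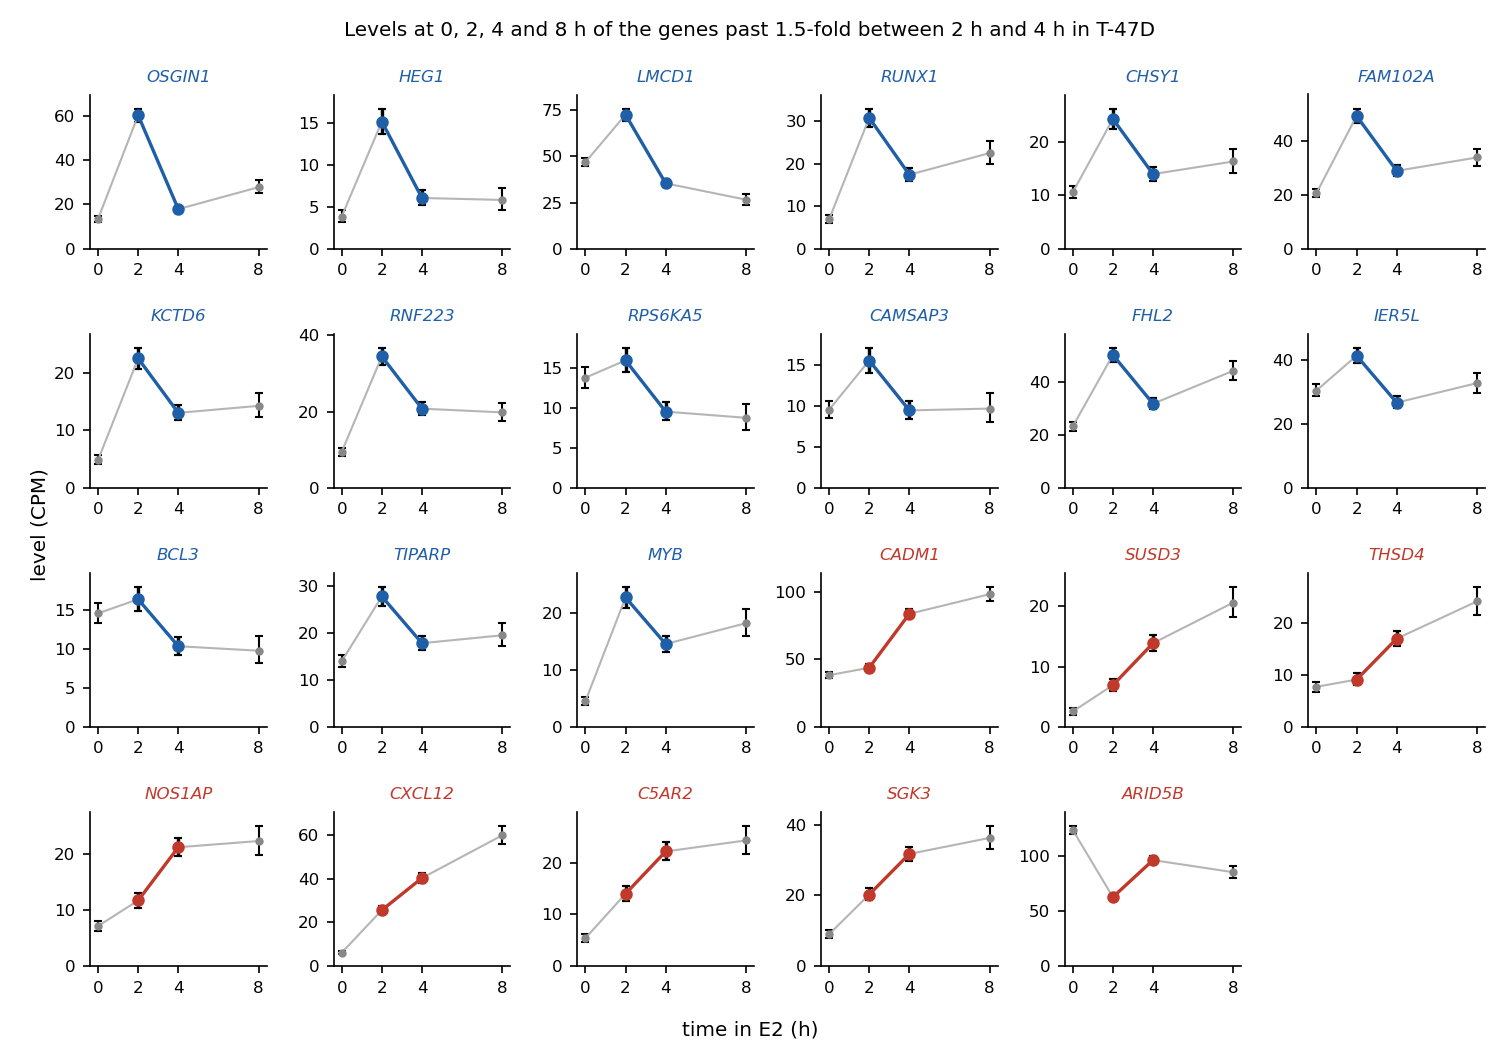
Each panel gives 1 of the 23 genes past 1.5-fold, with its level (CPM) against time in E2 (h) and 95% exact Poisson intervals as bars; the coloured segment is the step from 2 h to 4 h (blue lower, red higher) and all axes start at 0. All 15 lower genes, chosen for a 2 h level above the 4 h level, are highest at 2 h. LMCD1, RPS6KA5 and BCL3 end under their 0 h levels. ARID5B is the risen gene whose 4 h level of 96.0 CPM is under its 0 h level of 123.

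The 0 h and 8 h pools were not used to choose these genes, and their comparison with each other shares no pool with the step. At 8 h against 0 h, 2.29% of 7453 genes were higher and 0.765% lower by the same rule. Of the 8 genes that rose from 2 h to 4 h, 7 were higher at 8 h than at 0 h by the rule and ARID5B was at 85.0 against 123 CPM. Of the 15 that fell, 12 passed the minimum at 8 h against 0 h, of which 6 were higher at 8 h and 2, LMCD1 and RPS6KA5, were lower.

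The receptor and the classical targets were named whatever their values. ESR1 was at 29.1 CPM at 2 h and 32.9 at 4 h, a log2 fold change of 0.17 (0.04 to 0.31). PGR, the progesterone receptor, was at 261 and 281 CPM (log2 0.11), and GREB1, a cofactor of ESR1, at 31.7 and 37.8 (log2 0.25). TFF1, a secreted trefoil peptide, was at 18.3 and 20.4 CPM (log2 0.15), where the interval of -0.02 to 0.33 includes no difference. CCND1, the D-type cyclin of the G1 phase, was at 158 and 126 CPM (log2 -0.33, -0.40 to -0.27). MYC, a growth transcription factor, was under the minimum with 217 UMIs at 2 h and 204 at 4 h, and its interval of -0.53 to 0.03 includes no difference. None of these 6 genes passed 1.5-fold, though GREB1 and CCND1 lay outside the 5th and 95th percentiles of all genes, -0.20 and 0.17.

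The estrogen targets as a list were spread to both sides. Of 40 listed genes, 26 passed the minimum and 17 of these lay above 0, against 45.0% of all genes tested. Their median on the log2 scale was 0.10 against -0.01 for all genes. By the rule 3 were higher (SUSD3, CXCL12 and SGK3) and 2 lower (FHL2 and MYB), and 5 were past 0.32 on each side of 0, where all genes tested gave 8 and 15 of 7408 by the rule and 56 and 98 past 0.32. The list holds genes that were added with earlier results of these data known, so it is not independent evidence of a direction. Short of the rule on the lower side were NRIP1, a corepressor of nuclear receptors, at 44.3 and 30.3 CPM (log2 -0.54), and RARA, a retinoic acid receptor, at 41.9 and 29.2 (log2 -0.51). On the higher side were FMN1, a formin that nucleates actin, at 57.8 and 80.3 CPM (log2 0.47), and OLFM1, a secreted olfactomedin, at 38.4 and 52.4 (log2 0.44). XBP1, a transcription factor of secretory cells, was among the 4 genes with the largest loss in CPM, at 843 and 717 (log2 -0.23). Of the targets under the minimum, PDZK1, a scaffold of membrane transporters, had 24 and 56 UMIs (interval of the log2 ratio 0.35 to 1.82), and ELOVL2, a fatty acid elongase, had 36 and 72 (0.24 to 1.46). These last pairs were picked after their values were seen.

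Nuclear receptors and coregulators gave 24 members past the minimum of 32 listed, with a median of -0.02 and 9 above 0. Among all genes tested, 45.0% lay above 0 and 1.32% were lower past 0.32. NRIP1 and RARA of the paragraph above belong to this list too, and with TFAP2C, an AP-2 factor of luminal cells, at 64.7 and 47.3 CPM (log2 -0.44), they were the 3 members past 0.32 in size, all lower. FOXA1, the pioneer factor that opens chromatin for ESR1, was the highest member at 84.4 CPM at 2 h and 103 at 4 h (log2 0.28). In vehicle cells FOXA1 was at 119 CPM, above both. Among the luminal markers the median was 0.02 and the lowest member was the epithelial factor ELF3, at 61.5 and 43.4 CPM (log2 -0.49).

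Immediate-early genes, which respond to signals without new protein synthesis, had the lowest median of the 23 lists with at least 3 members past the minimum, at -0.12 over 12 of 28 listed genes, with 3 above 0. Of all genes tested, 45.0% lay above 0 and 1.32% were lower past 0.32. None of the 12 immediate-early genes passed 1.5-fold and 3 were lower by more than 0.32 on the log2 scale. These were FOSL2, a partner of JUN in the AP-1 factor, at 13.2 and 9.65 CPM (log2 -0.42), JUND, another AP-1 subunit, at 501 and 386 (log2 -0.38), and ATF3, a stress-induced factor, at 21.1 and 16.5 (log2 -0.33). The mean of FOSL2 passed the minimum of 10 CPM only through the 2 h pool, where it was higher. Under the minimum, MAFF had 46 and 18 UMIs and the orphan receptor NR4A2 had 37 and 13, both with ratio intervals below 0, and FOS had 21 and 20. MAFF and NR4A2 were named after their counts were seen. MAPK feedback genes had 3 members of 17 past the minimum and a median of -0.04, from DUSP8 at -0.30 to SPRY1 at 0.16.

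Genes of DNA replication and protein synthesis stood mostly above 0, each by little. Of 42 S phase genes, 31 passed the minimum, 29 of them above 0 around a median of 0.16 on the log2 scale, and 5 were higher by more than 0.32, against 45.0% above 0 and 0.756% past 0.32 among all genes. DTL, which licenses degradation of the replication factor CDT1, was the highest at 9.27 and 13.9 CPM (log2 0.53). Its mean passed the minimum only through the 4 h pool. With every cell cut to the same number of UMIs, DTL showed little of this rise, with means of 0.097 and 0.104 UMIs per cell. It was then seen in 6.79% of 2 h cells (5.44% to 8.36%) and 7.38% of 4 h cells (6.04% to 8.91%). CDT1 followed at 13.2 and 18.3 CPM (log2 0.45) and MCM10 at 11.5 and 16.1 (log2 0.45). MCM6, a subunit of the replicative helicase, was at 12.1 and 16.3 CPM (log2 0.39). CDT1, MCM10 and MCM6 were not examined singly at equal UMIs per cell. Summed over the S phase list, such cells had means of 10.4 UMIs at 2 h and 11.3 at 4 h, with standard deviations of 17.5 and 16.4. PCNA, the sliding clamp, was at 58.4 and 60.2 (log2 0.04). The lowest member was RRM2, a subunit of ribonucleotide reductase, at 31.2 and 27.5 CPM (log2 -0.17). In the 824 and 845 cells with no UMI of the cycle genes TOP2A and MKI67, the median of the S phase genes was 0.10. Over all settings it ranged from 0.10 to 0.18. A cell without these UMIs could still be in the cycle, so this set cannot separate cycling from other cells. G2/M genes had a median of 0.08 over 37 of 52 genes, 28 above 0 and none past 0.32, and cyclins and other G1/S regulators a median of 0.04 over 12 of 18, which fell below 0 in several other settings, the lowest at -0.22 with a minimum of 50 CPM.

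Ribosome biogenesis genes had a median of 0.07 over 53 of 59 listed genes, with 43 above 0 and 4 higher by more than 0.32. For this and the next 2 lists, the shares among all genes tested were 45.0% above 0 and 0.756% higher past 0.32. The helicase DDX10, at 33.5 and 49.3 CPM, reached a log2 fold change of 0.54, the nearest to the rule from below on the higher side. BOP1, needed to process the large-subunit ribosomal RNA, was at 16.6 and 23.7 CPM (log2 0.49), and DKC1, the pseudouridine synthase dyskerin, at 51.0 and 66.7 (log2 0.38). Aminoacyl-tRNA synthetases, which load amino acids onto tRNAs, had a median of 0.15 with 18 of 20 above 0 and the highest at 0.30 for YARS. The 38 cytosolic ribosomal protein genes had a median of 0.03 with 37 above 0 and a range of -0.01 to 0.07. The lists share the 2 pools and the scaling to total UMIs, so their medians are not independent of one another.

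**Figure D3:**
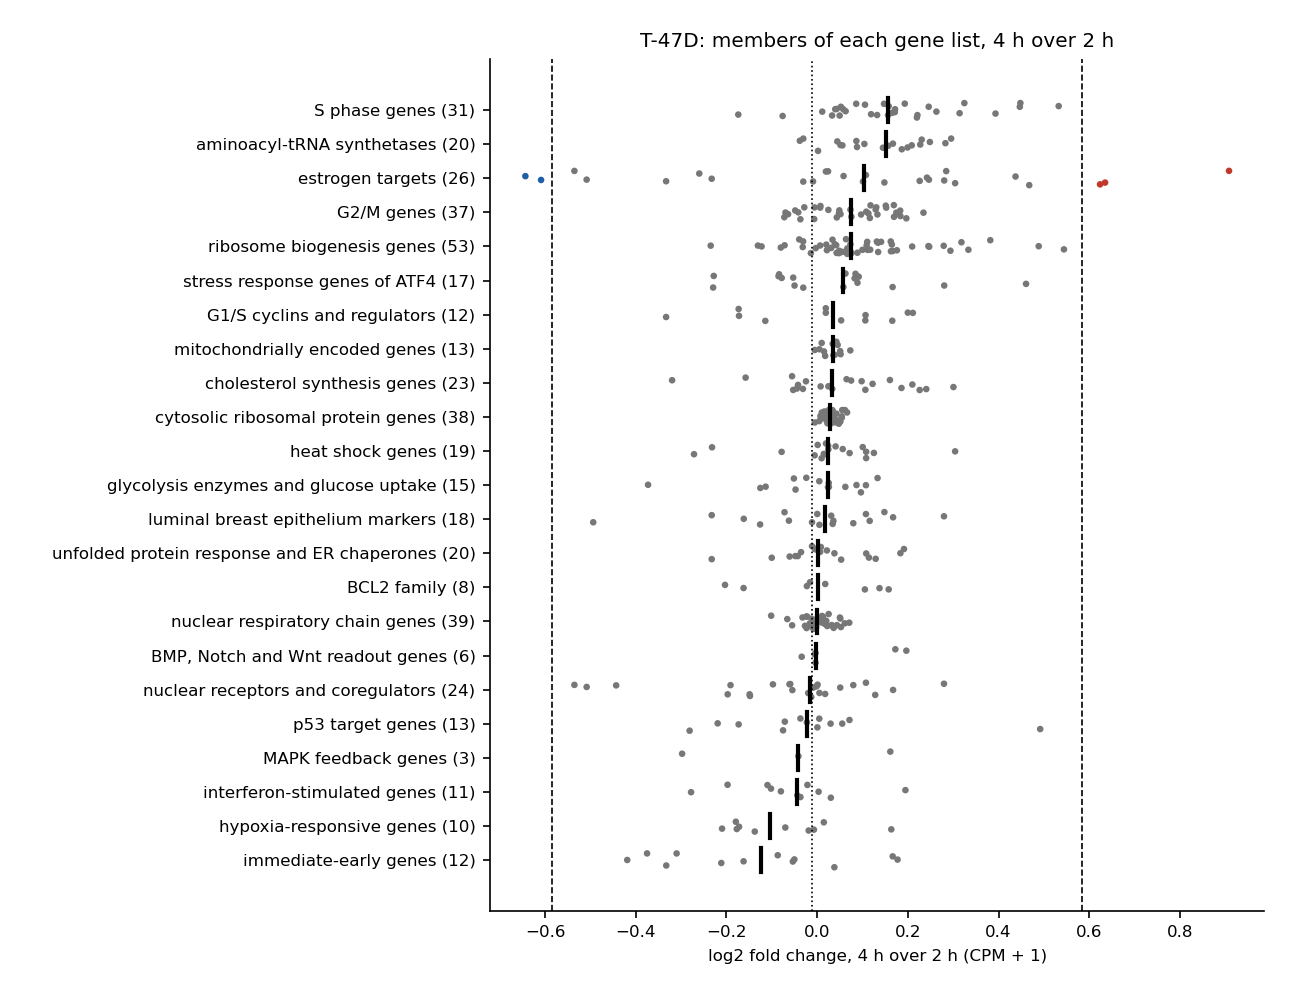
Each point is a list member past the minimum, placed by its log2 fold change at 4 h over 2 h, for the 23 lists with at least 3 such members (number in brackets). Black bars are medians, the dotted line is the median of all genes at -0.01 and dashed lines mark 1.5-fold; the bars run from -0.12 (immediate-early genes) to 0.16 (S phase genes), and the estrogen targets hold the only points past 1.5-fold.

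Of the remaining lists, the hypoxia-responsive genes had a median of -0.10 over 10 members. Of these members 2 were above 0, against 45.0% of all genes tested. The other remaining lists lay closer to the median of all genes. Medians were 0.06 for stress response genes of ATF4 (17 members), 0.04 for mitochondrially encoded genes (13), 0.03 for cholesterol synthesis (23), and 0.02 for heat shock genes (19) and for glycolysis (15). The unfolded protein response (20 members), the BCL2 family (8), the nuclear respiratory chain (39) and the BMP, Notch and Wnt readouts (6) had medians within 0.01 of 0. Medians were -0.02 for p53 targets (13) and -0.04 for interferon-stimulated genes (11). With TMM factors the medians of 4 lists turned to above 0, those of the nuclear respiratory chain, the BMP, Notch and Wnt readouts, the p53 targets and the nuclear receptors. Single members stood apart inside flat lists. SLC3A2, the heavy chain of an amino acid exchanger, was at 374 and 515 CPM (log2 0.46), the kinase PLK2 at 49.6 and 70.1 (log2 0.49), the cochaperone FKBP4 at 504 and 623 (log2 0.30) and the glucose transporter SLC2A1 at 19.1 and 14.5 (log2 -0.37). By loss in CPM the 4 leading genes were MALAT1, S100A6, TMSB4X and XBP1, and by gain MT-ND3, KRT8, MT-ND4 and MT-ATP6. Apart from XBP1 and KRT8 these had log2 fold changes within 0.06 of 0.

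The step was also seen in how many UMIs a cell held. Each cell was thinned to 10000 UMIs, below the shallowest cell, so that depth was equal. The sum over the 15 genes lower at 4 h had a median of 5 UMIs per cell at 2 h (quartiles 3 and 7) and 3 at 4 h (1 and 4), and 37.6% of 2 h cells but 7.83% of 4 h cells held more than 5. Cells with none of these UMIs made up 2.57% at 2 h and 8.95% at 4 h. The sum over the 8 genes higher at 4 h had a median of 2 (1 and 3) at 2 h and 3 (2 and 5) at 4 h. The distributions of the pools overlapped in both sums, which were chosen for the difference between these same cells.

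**Figure D4:**
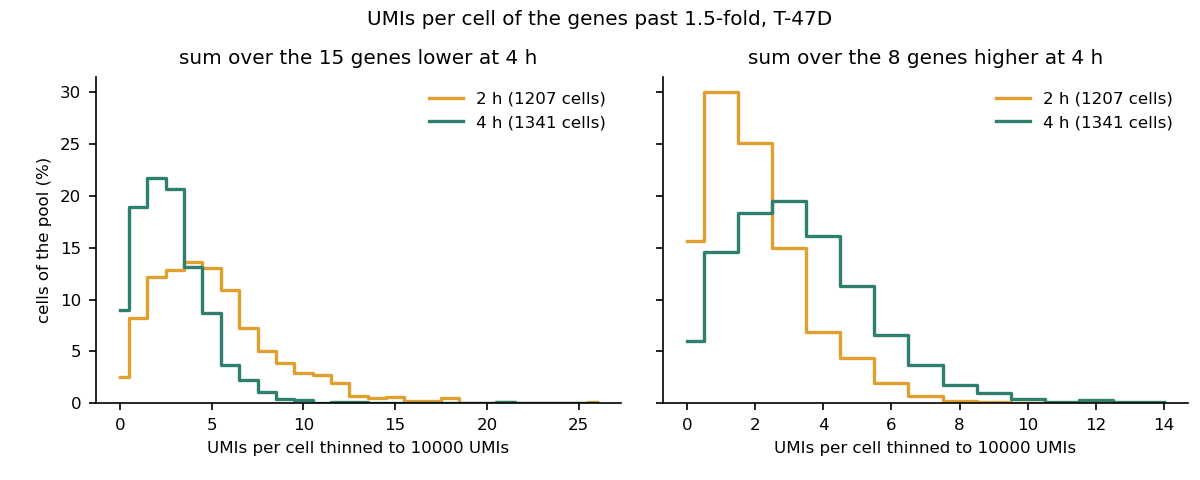
Share of cells of each pool (%) against the summed UMIs per cell, after thinning every cell to 10000 UMIs, for the 15 genes lower at 4 h (left) and the 8 higher (right). The 2 h curve (orange, 1207 cells) reaches to the right of the 4 h curve (green, 1341 cells) on the left panel, with medians of 5 and 3, and the order is turned on the right panel, with medians of 2 and 3.

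Cells with a UMI of OSGIN1 made up 36.0% of the 2 h pool (95% exact binomial interval 33.2% to 38.7%) and 14.8% of the 4 h pool (12.9% to 16.8%) after thinning, and 51.9% and 27.6% before it. Cells that held at least 3 OSGIN1 UMIs went from 7.04% to 0.597%. LMCD1 was seen in 41.8% and 26.5% of thinned cells, with 15 UMIs in the fullest 2 h cell and 7 in the fullest 4 h cell. CADM1 was seen in 32.1% (29.4% to 34.8%) of 2 h cells and 670 of the 1341 4 h cells (47.3% to 52.7%) after thinning, and in 54.7% and 69.6% before it. CXCL12 was seen in 20.4% and 30.1% of thinned cells, and SUSD3, the lowest of the risen genes at 2 h, in 6.38% and 13.1%. TFF1 was seen in few cells, 8.78% and 9.84%, although 1 cell at 4 h held 32 of its UMIs. The library held T-47D cells only, so no cell type without these genes gives a background share, and the part of RNA free in the suspension was not tested. Of the cycle genes, TOP2A was seen in 18.3% (16.2% to 20.6%) and 21.0% (18.9% to 23.3%) of thinned cells and in 27.7% and 32.4% before thinning. MKI67 was seen in 11.0% of thinned cells in both pools and in 14.3% and 15.7% before thinning.

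The same step in Ishikawa is set beside these values, over 1480 and 892 cells. There 0.127% of 7844 genes were higher and 0.204% lower at 4 h than at 2 h. Of the 23 T-47D genes, 10 passed the minimum in Ishikawa. Of the 8 lower genes among them, 4 lay below 0, and both higher ones, SGK3 at 0.21 and ARID5B at 0.14, lay above 0 and under the fold. Among all genes tested in Ishikawa, 52.3% lay above 0, so these few signs show no shared direction. IER5L was the 1 gene past the rule in both lines, at 160 and 101 CPM in Ishikawa (log2 -0.66). OSGIN1 was at 19.8 and 22.4 CPM there (log2 0.17) and FHL2 at 35.8 and 45.7 (log2 0.34). CXCL12 had no UMI in either Ishikawa pool, and CADM1 had 1 in each. Immediate-early genes had a median of 0.27 over the 10 of the T-47D members that passed the minimum in Ishikawa. With 1 culture per time point the difference between lines was not tested.

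Promoter windows of RefSeq (GRCh38.p14, 250 bases before to 50 after 1 start per gene) were matched to 14 of the 15 lower and 6 of the 8 higher genes, all but FAM102A, SGK3 and CADM1. Of these 20 windows, 16 end at the outer end of the gene, while those of RUNX1, FHL2, BCL3 and NOS1AP stand at a start inside its span. They were searched on both strands for 4 motifs. The estrogen response element in its full form, GGTCA and TGACC 3 bases apart, was in none of them and in 0.0659% of 27305 windows. The AP-1 site TGACTCA was in OSGIN1 and C5AR2 and in 4.92% of all windows, the cAMP response element TGACGTCA in LMCD1 and in 1.98%, and an E2F site (TTTGGCGC or TTTCCCGC) in IER5L and in 2.31%. No window of these genes held more than 1 of the motifs. The 250 bases before the start are shown for the 3 genes in which a match stands before it, of which OSGIN1 and LMCD1 fell and C5AR2 rose, 5′ to 3′ on the gene's strand with the motif in capitals. They lie at chr16:83952990-83953239, chr3:8501573-8501822 and chr19:47331925-47332174, all on the plus strand.
OSGIN1: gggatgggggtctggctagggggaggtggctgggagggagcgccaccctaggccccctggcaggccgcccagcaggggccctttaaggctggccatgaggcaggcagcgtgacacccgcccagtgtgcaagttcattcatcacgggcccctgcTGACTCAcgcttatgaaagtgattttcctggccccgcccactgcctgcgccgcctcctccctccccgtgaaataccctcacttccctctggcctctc
LMCD1: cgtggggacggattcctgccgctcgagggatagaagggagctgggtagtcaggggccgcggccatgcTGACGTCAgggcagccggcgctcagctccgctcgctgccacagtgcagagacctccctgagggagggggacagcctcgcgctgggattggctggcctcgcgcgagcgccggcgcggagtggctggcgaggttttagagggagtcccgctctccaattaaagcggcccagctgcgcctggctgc
C5AR2: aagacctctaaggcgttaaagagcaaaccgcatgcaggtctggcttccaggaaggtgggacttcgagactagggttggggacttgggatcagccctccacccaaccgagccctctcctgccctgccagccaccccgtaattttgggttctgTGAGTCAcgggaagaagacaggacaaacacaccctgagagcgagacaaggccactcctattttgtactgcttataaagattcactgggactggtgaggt
The matches begin 97, 183 and 99 bases before the start, and the C5AR2 match reads TGACTCA on the other strand. OSGIN1 spans chr16:83953240-83966332, LMCD1 chr3:8501823-8574668 and C5AR2 chr19:47332175-47347329. A match describes the letters only, since binding at these windows was not measured here, and enhancers outside them were not searched.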

How the data were processed

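The deposited matrices give counts, which the authors made with Cell Ranger 3.1.0 on the human build hg38 (annotation version not given in the sources used here): UMIs per gene and cell barcode. The authors assigned time points from the MULTI-seq tags with the demultiplex R package. All 4626 T-47D cells called to 1 time point were used, at 10004 to 39992 UMIs, all inside the limits of the study's methods, and Ishikawa cells within its limits for that line. Tag doublets (1442 barcodes) and the 12120 barcodes with no call were left out, and no further doublet caller was run.

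UMIs were summed per time point and scaled to CPM. Fold changes are log2((CPM at 4 h + 1)/(CPM at 2 h + 1)) for genes whose 2 pools averaged 10 CPM or more, and a gene was called at 1.5-fold. Intervals of 95% are exact Poisson for CPM, conditional binomial for the plain ratio and Clopper-Pearson for shares. They cover counting error only. There is 1 culture per time point, so no p-value is given.

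Genes named in the text were ESR1, GREB1, TFF1, PGR, MYC and CCND1, the 10 highest and 10 lowest by fold, the 4 largest rises and falls in CPM, and both extremes of each of 26 gene lists. All genes past the rule and some further list members were named beside them. The members and lists were chosen with earlier results of these data known. The 13 alternatives covered scaling (with edgeR 4.0.16), minimum, pseudocount, fold and choice of cells. The scripts (Python 3.11.15, numpy 2.4.6, scipy 1.17.1, pandas 2.3.3) were tested on simulated data.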

Additional observations from a re-analysis of the deposited data

How the results depend on the processing

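The main counts were 8 higher and 15 lower genes. Without a minimum they were 45 and 53, at a minimum of 50 CPM 2 and 1, with a pseudocount of 5 CPM 4 and 9, at a log2 fold of 0.32 56 and 98, and at 2-fold 0 and 3. With cells at or under the median mitochondrial share they were 13 and 23, of which 8 and 13 were among the main genes; the cause was not tested, though this setting has fewer cells. The share of higher genes among those called was 34.8%, against 45.9% without a minimum and 66.7% when it was 50 CPM. TMM and median-of-ratios scaling left both counts and all 23 genes as they were. The other settings gave 8 to 10 higher and 16 to 17 lower, not all of them main genes. With cells thinned to 10000 UMIs, 7 of the 10 higher and 11 of the 17 lower genes were among the main genes. OSGIN1, HEG1, LMCD1, RUNX1, CHSY1, FAM102A, KCTD6, RNF223, CADM1, SUSD3, THSD4 and NOS1AP were past 1.5-fold in every setting that could give them a value, and the other 11 genes fell short in 1 to 3 settings. TIPARP was the farthest short, at -0.35 with cells of low mitochondrial share against -0.61. No called gene changed sign. The medians of 12 lists changed sign in at least 1 setting. With a minimum of 50 CPM the G1/S regulators went from 0.04 to -0.22 and the ATF4 list from 0.06 to -0.0402, and without a minimum the Ishikawa markers, of which 1 passed it, went from -0.04 to 0.38. No paired analysis was possible because each time point was 1 culture. With 1 culture, differences between cultures and the effect of time cannot be told apart.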
